A study of Mus musculus with 12 samples.

Results

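Hormone receptor genes of the mammary gland and genes that act on or beside their signals were followed in single cells of Brca1-deficient mammary glands and tumors. The set is a list of names with no threshold on values, drawn up with earlier results of these data known: the receptor genes Esr1 (estrogen receptor alpha), Pgr (progesterone receptor) and Prlr (prolactin receptor), the genes Areg, Wnt4, Cited1 and Tph1, and the surface protein genes Ly6a and Prom1. Of these 9 genes, 8 had a row among the 21743 genes of the count table, and Areg was not analysed here. The questions were which gland cells hold these transcripts, which cells of 2 tumors still hold them, and whether receptors and the other genes were read out in the same cells.

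In the mammary epithelium, estrogen and progesterone act on a luminal cell population that carries their receptors, the hormone-sensing cells, and reach neighbouring cells through secreted factors. The other luminal population makes milk, and the basal cells contract to expel it. Prolactin acts through its receptor on the kinase JAK2 and the transcription factor STAT5. WNT4 is a secreted ligand known downstream of the progesterone receptor, CITED1 is a transcriptional co-regulator that binds the estrogen receptor, and TPH1 is the rate-limiting enzyme of serotonin synthesis outside the brain. LY6A (Sca-1) and PROM1 (CD133) are surface proteins used to separate hormone-sensing luminal cells from other luminal cells.

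Single-cell RNA was read by Drop-seq, a droplet method that tags RNA with a cell barcode and with unique molecular identifiers (UMIs), which count molecules. Mouse 1 gave the gland cells MG1 and the tumor cells MT1, and mouse 2 gave MG2 and MT2, the glands being the fourth pair. All 4 groups carried MMTV-Cre, whose promoter is active mainly in mammary epithelium, and both floxed Brca1 alleles on a mixed background of C57BL/6 and 129/Sv. No group came from a control mouse without floxed Brca1. Which single cells had lost Brca1 was not checked here. Blood and endothelial cells were depleted before capture. The methods give an age range and virgin or pregnant females for gland preparations in general, and which of these applies to these 2 tumor-bearing mice is not given in the sources used here. There were 2 libraries of MG1, 2 of MG2, 5 of MT1 and 3 of MT2, and libraries of a tissue of 1 mouse repeat the preparation and not the animal, so the p-values below measure only the spread between preparations.

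The table held 21157 cells (818 of MG1, 2335 of MG2, 7690 of MT1 and 10314 of MT2), with 693333 to 14841414 UMIs per library and a median of 1784 to 4842 UMIs per cell. MG1 replicate 2 was the smallest library, with 105 cells. Cells fell into 11 clusters from all genes but the members. A luminal hormone-sensing-like cluster of 1241 cells raised 8 of its 10 markers, a luminal secretory-like cluster of 1237 cells raised 10 of 10, and a basal-like cluster of 330 cells raised 9 of 10. The remaining clusters were fibroblast-like, endothelial-like, immune-like, or consisted almost wholly of tumor library cells (clusters 1 and 2 from MT2, clusters 3, 4 and 5 from MT1). The last 5 are called tumor clusters below, and 14 MG1 and 48 MG2 cells fell into them. Levels are given as CPM, the usual scaling of a gene's UMIs to all UMIs of the cells summed. Shares of cells with a UMI are given after thinning the cells to 800 UMIs, with exact Clopper-Pearson intervals of 95%, which cover counting error only. The lowest cell had 1111 UMIs, so thinning left out no cell.

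In the gland, the receptors were read out mainly in hormone-sensing-like cells. Esr1 (chr10:4611593-5005614, GRCm38, forward strand) stood at 65.0 and 71.3 CPM in the hormone-sensing-like cells of the 2 MG1 libraries and at 76.3 and 74.3 CPM in those of MG2. Secretory-like cells had 6.90 and 5.29 CPM in MG1 and 6.81 and 8.34 CPM in MG2, and basal-like cells 11.7 and 0 and 18.6 and 22.7 CPM. The 4 hormone-sensing-like values lay close together and above every value of the other epithelial classes. Fibroblast-like cells had 43.7 and 7.72 CPM in MG1, from 17 and 1 UMIs, and 18.1 and 5.27 CPM in MG2, from 3 and 1, and endothelial-like cells of the 3 libraries with at least 10 of them a mean of 22.8 CPM ± 15.6 (SD, n = 3), all below the hormone-sensing-like values. At 800 UMIs Esr1 was seen in 6.32% (3.72 to 9.93%) of hormone-sensing-like cells of MG1 and 7.70% (6.05 to 9.63%) of those of MG2, and without thinning in 27.5% and 21.9%, so most hormone-sensing-like cells gave no Esr1 UMI at this depth. In secretory-like cells the share at 800 UMIs was 0% (0 to 1.33%) and 0.535% (0.174 to 1.24%).

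Pgr (chr9:8899833-8968611, forward strand) stood at 306 and 199 CPM in hormone-sensing-like cells of MG1 and at 159.6 and 205 CPM in those of MG2. Secretory-like cells of the same libraries had 6.90 and 0 CPM and 2.62 and 9.38 CPM. The share of hormone-sensing-like cells with Pgr was 24.9% (19.9 to 30.5%) in MG1 and 15.7% (13.4 to 18.3%) in MG2, against 0.362% (0.00917 to 2.002%) and 0.428% (0.117 to 1.09%) of secretory-like cells. The hormone-sensing-like and secretory-like levels did not overlap in any gland library.

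Prlr (chr15:10177238-10349180, forward strand) was the most abundant member in UMIs. Its level was 4039.6 and 2158 CPM in hormone-sensing-like cells of MG1 and 2898 and 3057 CPM in those of MG2. It was seen in 81.4% (76.2 to 85.9%) of these cells in MG1 and in 87.5% (85.1 to 89.5%) in MG2, and without thinning in 98.1% and 98.9%. Secretory-like cells, which are known to carry the prolactin receptor too, had 186 and 106 CPM and 148 and 211 CPM, and basal-like cells 191 and 75.6 and 31.0 and 90.8 CPM. Fibroblast-like cells, as a class outside the epithelium, had 156 CPM in MG1 and 84.4 CPM in MG2. The secretory-like level was 4.68% of the hormone-sensing-like level in MG1 and 6.04% in MG2, and the fibroblast-like level was 4.21% and 2.84%. In MG1 the secretory-like, basal-like and fibroblast-like levels were thus of like size. In MG2 they were not, with the basal-like level at 1.95% of the hormone-sensing-like level beside the secretory-like 6.04%. The part of free RNA in these levels was not tested. Median depth was 4421 UMIs in hormone-sensing-like and 3288 UMIs in secretory-like cells of MG1, and 2558 and 2532 UMIs in MG2.

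Wnt4 (chr4:137277489-137299726, forward strand) stood at 80.9 and 255 CPM in hormone-sensing-like cells of MG1 and at 116 and 102 CPM in those of MG2. Its secretory-like level was 7.89 and 21.2 CPM and 14.1 and 10.4 CPM, and its basal-like level 3.89 and 0 and 3.10 and 0 CPM, the lowest of the epithelial classes. Cited1 (chrX:102247381-102252181, reverse strand) was at 423 and 642 CPM and 287 and 314 CPM in hormone-sensing-like cells, higher in MG1 than in MG2 in every library. It was seen in 27.1% (21.9 to 32.9%) and 22.3% (19.7 to 25.2%) of these cells and in 0.362% (0.00917 to 2.002%) and 0.857% (0.370 to 1.68%) of secretory-like cells.

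Tph1 (chr7:46644641-46672537, reverse strand) varied most of the members among the hormone-sensing-like cells of the gland libraries. Its hormone-sensing-like level was 201 and 1253 CPM in the 2 MG1 libraries and 541 and 670.0 CPM in the 2 MG2 libraries. In MG1 replicate 2, which had 27 hormone-sensing-like cells, 59.3% of them had Tph1 at 800 UMIs, and so did 19.4% of its 31 secretory-like cells. In MG1 replicate 1 the shares were 10.3% and 1.22%. The secretory-like level thus moved with the hormone-sensing-like level between the MG1 libraries, at 4.93 and 68.8 CPM in replicates 1 and 2.

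Ly6a (chr15:74994877-74998031, reverse strand) was not a gene of hormone-sensing-like cells alone. These cells had 197 and 146 CPM in MG1 and 397 and 378 CPM in MG2, above the secretory-like 17.8 and 63.5 CPM and 52.9 and 62.5 CPM, but fibroblast-like cells had 692 and 896 CPM and 555 and 906 CPM. Ly6a has close paralogs, and how reads shared with them were counted is not given in the sources used here. Prom1 (chr5:43993620-44102032, reverse strand) stood at 37.3 and 86.3 CPM and 54.0 and 68.1 CPM in hormone-sensing-like cells, against 6.90 and 0 CPM and 5.24 and 7.30 CPM in secretory-like cells.

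Hormone-sensing-like cells were 32.9% of the cells of MG1 and 38.9% of those of MG2. They held 93.4% and 92.4% of the Prlr UMIs of the 2 glands, 91.6% and 94.0% of those of Pgr, 95.8% and 93.4% of Cited1, 93.8% and 92.4% of Tph1. For Wnt4 they held 89.5% and 86.7%, for Prom1 88.6% and 87.8%, and for Esr1 76.5% and 83.3%. Of the rest of Esr1, fibroblast-like cells held 13.6% in MG1 and 1.34% in MG2, and secretory-like cells 6.06% and 9.70%. Ly6a was split, with 36.9% and 68.7% in hormone-sensing-like cells and 49.3% and 14.1% in fibroblast-like cells. The members were kept out of the clustering, but their fellow genes in the same cells were not, so these levels describe the classes and were given no test.

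**Figure D1:**
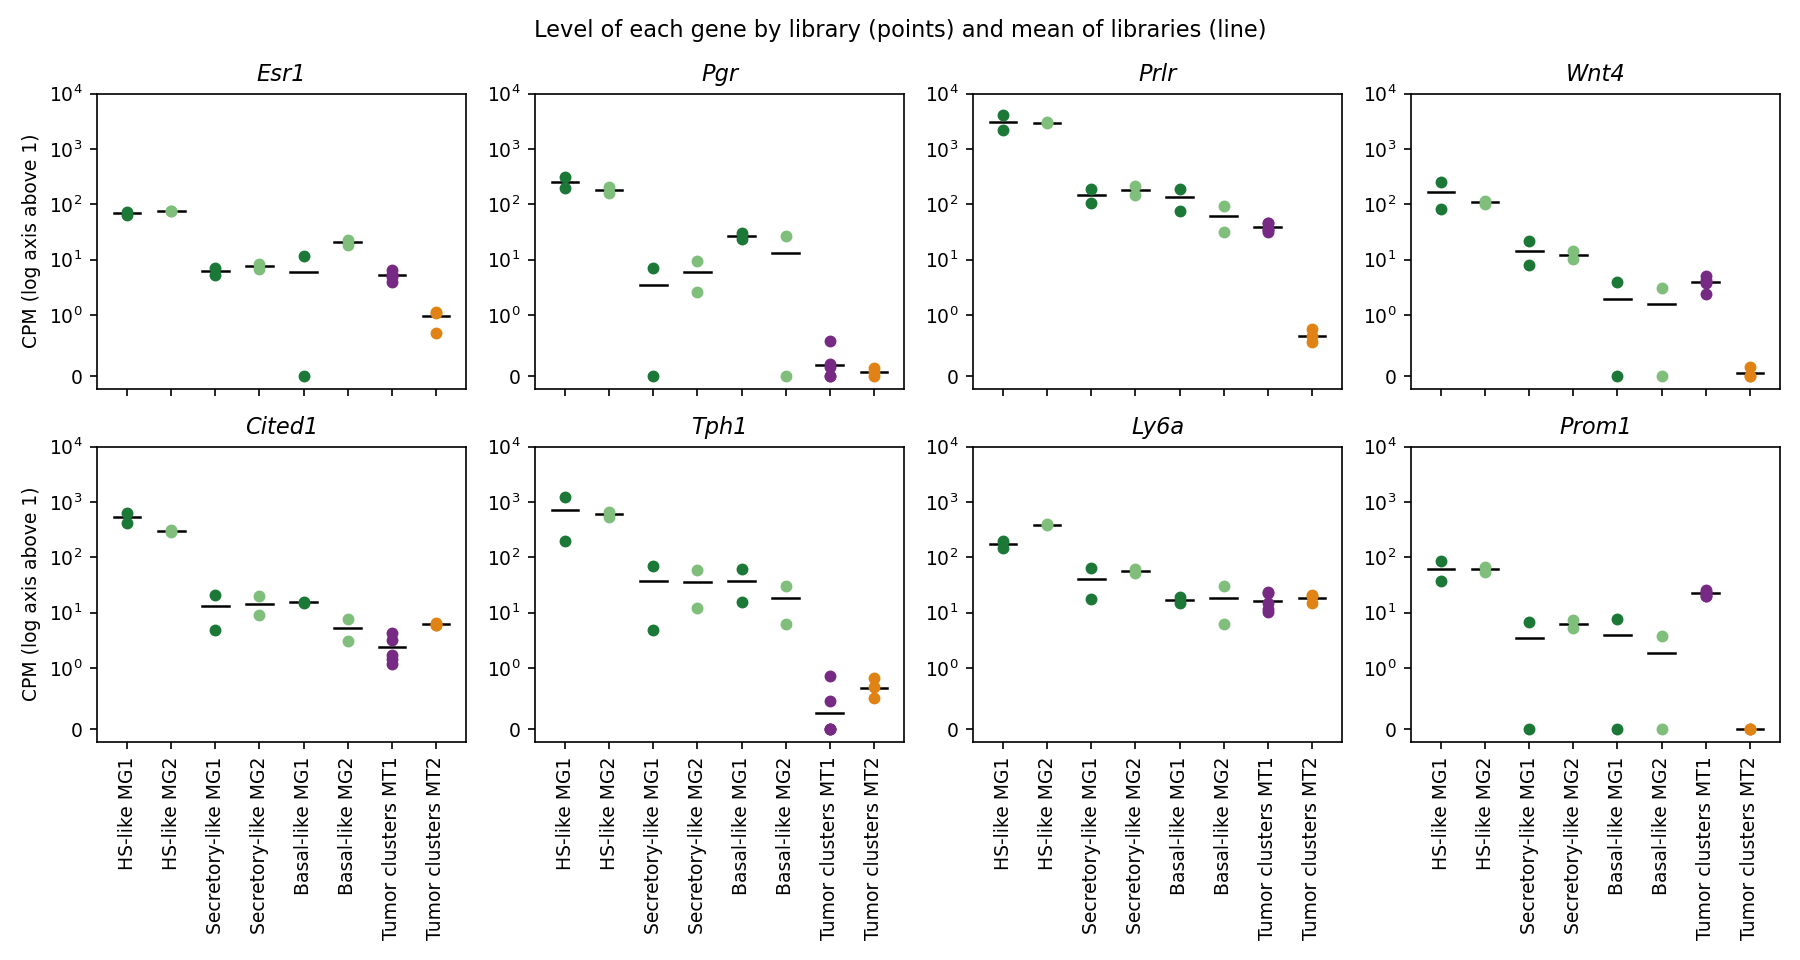
Level of the 8 genes in CPM (vertical axis, logarithmic above 1 CPM and linear below) in hormone-sensing-like (HS-like), secretory-like and basal-like cells of MG1 and MG2 and in the tumor clusters of MT1 and MT2. Points are libraries and lines their means. All 8 genes are highest in hormone-sensing-like cells among the classes drawn, and Prom1 of MT1 lies between the hormone-sensing-like and the secretory-like gland cells.

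**Figure D2:**
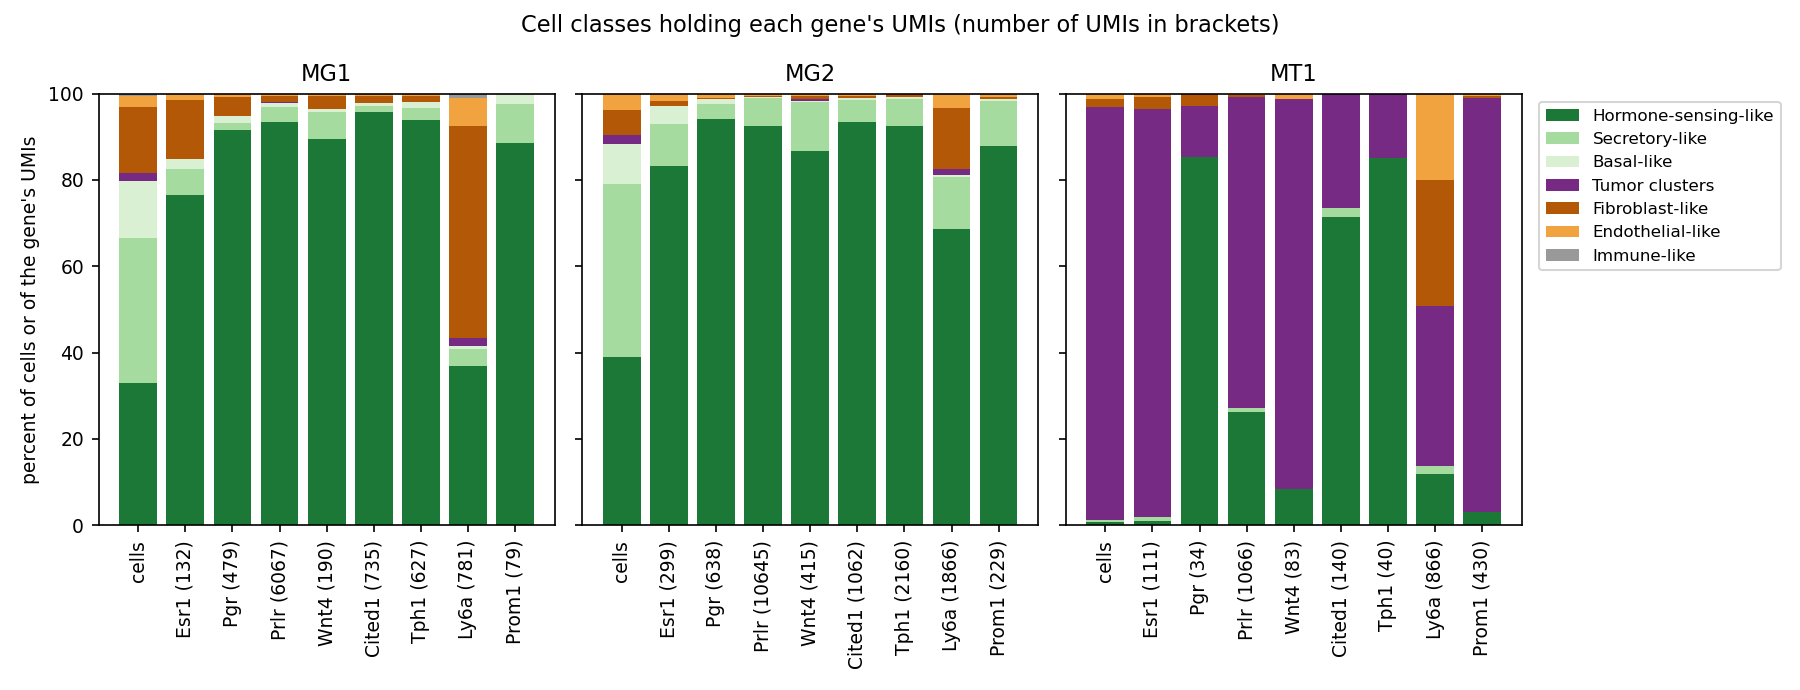
Percent of cells (first bar) and percent of the UMIs of the 8 genes (other bars, number of UMIs in brackets) held by the cell classes in MG1, MG2 and MT1. In the glands hormone-sensing-like cells hold 76.5% or more of the UMIs of all genes but Ly6a. In MT1 their 0.819% of the cells hold 85.3% of the Pgr UMIs.

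The 250 bases before the gene starts of the members were searched on both strands for AGGTCA (core motif of the estrogen receptor), AGAACA (core motif of the progesterone receptor), TTCNNNGAA (STAT5) and TGTTTAC (forkhead factors). RefSeq promoters (GRCm38.p6) were at hand for 7 of the 8 measured members, with 14 starts in all, and none for Ly6a. Of the 14 promoters, 2 held AGGTCA, 2 AGAACA, 2 TTCNNNGAA and 1 TGTTTAC. Of 32851 promoters of the same length, 14.0% held AGGTCA, 16.1% AGAACA, 7.02% TTCNNNGAA and 3.17% TGTTTAC. The promoters of Prlr with 3 matches and of Cited1 and Tph1 with AGGTCA on either strand are shown, 5′ to 3′ on the gene's strand, with matches in capitals. They lie at chr15:10223656-10223905 (forward), chrX:102250777-102251026 (reverse) and chr7:46667378-46667627 (reverse).
Prlr: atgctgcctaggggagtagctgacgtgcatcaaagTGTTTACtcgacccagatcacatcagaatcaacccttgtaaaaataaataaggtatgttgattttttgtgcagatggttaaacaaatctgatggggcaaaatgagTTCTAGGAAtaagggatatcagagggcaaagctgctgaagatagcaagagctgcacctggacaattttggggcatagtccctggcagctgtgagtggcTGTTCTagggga
Cited1: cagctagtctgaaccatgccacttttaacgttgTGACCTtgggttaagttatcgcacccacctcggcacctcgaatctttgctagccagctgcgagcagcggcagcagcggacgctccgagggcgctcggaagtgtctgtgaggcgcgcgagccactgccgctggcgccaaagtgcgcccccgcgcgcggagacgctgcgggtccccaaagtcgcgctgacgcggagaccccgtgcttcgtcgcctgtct
Tph1: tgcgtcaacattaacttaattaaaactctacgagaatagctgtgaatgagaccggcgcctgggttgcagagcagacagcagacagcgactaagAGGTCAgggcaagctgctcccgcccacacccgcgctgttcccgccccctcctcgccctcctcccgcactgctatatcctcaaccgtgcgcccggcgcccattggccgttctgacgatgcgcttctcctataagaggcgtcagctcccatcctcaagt
In the Prlr promoter the matches are TGTTTAC 215 bases, TTCNNNGAA 110 bases and AGAACA (on the opposite strand) 12 bases before the start, counted at the first base of the match. The other matches were TTCNNNGAA in a promoter of Esr1 and AGAACA in a promoter of Prom1. A match is a description of the letters and not of a bound factor.

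The comparison of tumor with gland asked which of these transcripts the tumors still held. UMIs of all cells outside the stromal clusters were summed per library, and the groups were compared with edgeR's quasi-likelihood test over 13653 genes, with Benjamini-Hochberg adjustment and TMM-scaled CPM. In summed cells, fewer cells of a type and less RNA per cell cannot be told apart. Of the 8 members, 7 were lower in MT1 than in MG1, where 27.1% of all genes tested were lower, and 8 were lower in MT2 than in MG2, where 34.3% of all genes were. None was higher, against 32.2% and 32.7% of all genes.

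Among the receptors, Esr1 was at 38.3 and 34.5 CPM in MG1, 4.70, 4.31, 5.78, 6.47 and 5.24 CPM in MT1, 35.7 and 33.2 CPM in MG2 and 0.737, 1.15 and 1.18 CPM in MT2. Glands and tumors did not overlap, nor did the tumors of the 2 mice. The log2 fold change was -2.75 ± 0.22 (SE) in mouse 1 (edgeR adjusted p = 2.00e-08) and -5.05 ± 0.23 in mouse 2 (edgeR adjusted p = 1.37e-12). Pgr was at 166 and 95.0 CPM in MG1, 0.588, 2.75, 1.41, 1.37 and 2.62 CPM in MT1, 66.3 and 83.04 CPM in MG2 and 0.147, 0.0764 and 0 CPM in MT2. Its log2 fold changes were -6.29 ± 0.27 (edgeR adjusted p = 1.28e-11) and -9.58 ± 0.39 (edgeR adjusted p = 4.34e-13), and the MT2 level rests on 3 UMIs in all.

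Prlr was at 2228 and 1036 CPM in MG1 and 34.1, 62.7, 63.1, 50.9 and 51.0 CPM in MT1, and at 1253 and 1253 CPM in MG2 and 0.589, 0.688 and 0.786 CPM in MT2. All 5 MT1 libraries lay above all 3 MT2 libraries and below all gland libraries. The log2 fold change was -4.95 ± 0.23 in mouse 1 (edgeR adjusted p = 2.20e-11) and -10.79 ± 0.37 in mouse 2 (edgeR adjusted p = 6.00e-14).

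Wnt4 was at 46.2 and 124 CPM in MG1, 4.11, 3.92, 6.25, 2.35 and 3.79 CPM in MT1, 54.3 and 43.1 CPM in MG2 and 0, 0 and 0.157 CPM in MT2, where 2 UMIs were counted. It fell in both mice, with log2 fold changes of -4.15 ± 0.36 and -9.40 ± 0.55 (edgeR adjusted p = 5.54e-08 and 4.86e-11). Cited1 was at 226 and 304 CPM in MG1, 7.05, 9.02, 6.25, 8.03 and 6.99 CPM in MT1, 121 and 128 CPM in MG2 and 6.34, 6.34 and 6.68 CPM in MT2, with log2 fold changes of -5.14 ± 0.16 and -4.27 ± 0.17 (edgeR adjusted p = 2.70e-13 and 3.30e-13). The MT1 and MT2 levels of Cited1 overlapped. Tph1 was at 109.9 and 606 CPM in MG1 and 0.588, 4.71, 1.56, 1.76 and 2.33 CPM in MT1, and at 227 and 281 CPM in MG2 and 0.884, 0.535 and 0.707 CPM in MT2. Its log2 fold changes were -7.30 ± 0.49 and -8.44 ± 0.57 (edgeR adjusted p = 2.60e-09 and 3.44e-10).

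Ly6a was at 119 and 89.8 CPM in MG1, 17.6, 32.9, 30.3, 13.7 and 18.1 CPM in MT1, 189 and 177 CPM in MG2 and 15.8, 21.3 and 21.5 CPM in MT2, with log2 fold changes of -2.25 ± 0.26 and -3.23 ± 0.25 (edgeR adjusted p = 1.18e-06 and 3.07e-09). Prom1 was the member that did not pass the test in mouse 1. It was at 23.3 and 39.7 CPM in MG1 and at 24.7, 22.7, 21.2, 21.0 and 24.2 CPM in MT1, overlapping levels with a log2 fold change of -0.32 ± 0.23 (edgeR adjusted p = 0.234). In MG2 it was at 24.4 and 29.2 CPM, and in the 9804 MT2 cells no UMI was counted, which makes it at least 388-fold lower in MT2 than in MG2 and at least 300.1-fold lower than in MT1, against a floor of 3 UMIs over the group.

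The change from gland to tumor differed between the mice for 7 members in the test of the difference itself (edgeR, 43.4% of all genes tested), 6 of them with the deeper fall in mouse 2 (26.4% of all genes) and 1 in mouse 1 (17%). The difference, mouse 1 minus mouse 2, was 5.84 ± 0.45 on the log2 scale for Prlr (edgeR adjusted p = 7.67e-09), 5.24 ± 0.87 for Wnt4 and 2.30 ± 0.33 for Esr1 (edgeR adjusted p = 1.94e-05). Cited1 went the other way, at -0.87 ± 0.24 (edgeR adjusted p = 0.00759), and Tph1 did not pass the test (1.135 ± 0.90, edgeR adjusted p = 0.329), but did without MG1 replicate 2, at a log2 difference of 2.75. Ly6a passed narrowly (edgeR adjusted p = 0.0384) and did not with DESeq2 (adjusted p = 0.0913). Tumors compared directly, 5 members were higher in MT1 than in MT2, where 35.3% of all genes tested were (33.1% were lower, 68.4% changed either way): Esr1 (2.41 ± 0.24), Pgr (4.17 ± 0.65), Prlr (6.23 ± 0.34), Wnt4 (5.87 ± 0.72) and Prom1, while Cited1, Ly6a and Tph1 did not pass. Tph1 was called there with DESeq2 and without either MG1 library, at log2 values of 1.53 to 1.57. These comparisons share libraries with those above.

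With the mouse as the replicate (2 pairs of summed gland and tumor, the mouse as a block), edgeR called 0 of 14947 genes, 0% in either direction, although 2219 had an unadjusted p under 0.05. All 8 members had a negative log2 fold change there, from -7.86 (Prlr) to -2.70 (Ly6a), with adjusted p from 0.309 to 0.616. The calls above are between preparations of these tissues and do not extend beyond the 2 mice.

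**Figure D3:**
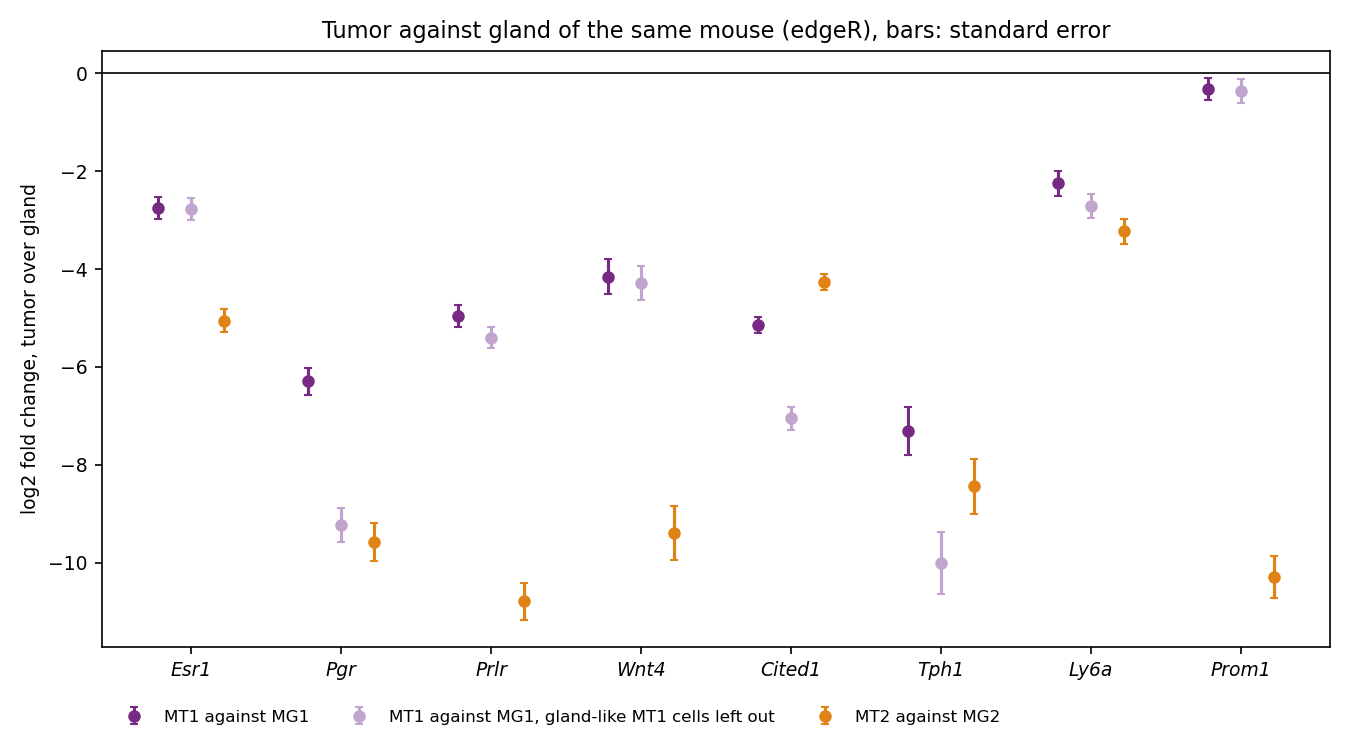
Log2 fold change of tumor over gland of the same mouse (vertical axis) for the 8 genes, with standard errors, from edgeR on summed libraries. Dark purple is MT1 against MG1, light purple the same without the gland-like cells of the tumor libraries, and orange MT2 against MG2. Without these cells Pgr of mouse 1 moves from -6.29 to -9.23, next to mouse 2, while Esr1 and Prom1 stay in place. Pgr then rests on 4 UMIs in MT1 and 3 in MT2. Prom1 had no UMI in MT2, so its orange point depends on the prior count.

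A small set of gland-like cells held most MT1 UMIs of Pgr, Tph1 and Cited1, and a minor part of the other members. The hormone-sensing-like cluster included 63 MT1 cells, 0.819% of MT1, spread over all 5 libraries (3, 10, 19, 19 and 12 cells), and no MT2 cell. These 63 cells held 29 of the 34 Pgr UMIs of MT1 (85.3%), 34 of 40 Tph1 UMIs (85%), 100 of 140 Cited1 UMIs (71.4%) and 280 of 1066 Prlr UMIs (26.3%). They held 11.8% of Ly6a, 8.43% of Wnt4, 3.02% of Prom1 and 0.901% of Esr1, which was 1 UMI of 111.

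The 63 cells were set against the hormone-sensing-like gland cells of MG1 and of MG2, as ratios of pooled levels with exact intervals for counting error in brackets. Cited1 was at 1.36 (1.09 to 1.68) of the MG1 level and 2.09 (1.69 to 2.57) of the MG2 level, and Ly6a at 3.39 (2.68 to 4.27) and 1.65 (1.34 to 2.02). Prlr was at 0.473 (0.418 to 0.534) and 0.591 (0.523 to 0.665), Pgr at 0.633 (0.419 to 0.922) and 1.003 (0.666 to 1.46), and Tph1 at 0.554 (0.380 to 0.783) and 0.354 (0.244 to 0.496). The intervals leave out the spread between libraries, which was wide in MG1: the Tph1 level of 213 CPM in the 63 cells lies between the 201 and 1253 CPM of the 2 MG1 libraries. Esr1 rests on 1 UMI, at 0.0949 (0.00238 to 0.541) of the MG1 level, an interval that holds that of Prlr. Of the MG2 level it was at 0.0833 (0.00210 to 0.468), an interval below that of Prlr. Over the 4 MT1 libraries with at least 10 such cells, Prlr was at 1745, 1878, 1589 and 1859 CPM, below all 4 gland libraries. Their median depth of 2056 UMIs was lower than the gland's.

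When gland-like clusters were taken out of the tumor libraries, an alternative chosen after seeing the data, the count stayed at 7 lower in mouse 1 and 8 in mouse 2. With these cells kept, 27.1% and 34.3% of all genes tested were lower, and the shares without them are not given here. Pgr then fell by 9.23 on the log2 scale in mouse 1, and the log2 fold change was -10.01 ± 0.63 for Tph1 and -7.05 ± 0.23 for Cited1. The difference between the mice was then 0.37 ± 0.75 for Pgr (edgeR adjusted p = 0.736), no longer past the threshold, and -2.76 ± 0.34 for Cited1 (edgeR adjusted p = 3.47e-06). Without these cells Pgr rested on 4 UMIs in MT1 and 3 in MT2, and Tph1 in MT1 on 6. A missing call at such counts does not show like Pgr levels in the tumors. Cited1 was then lower in MT1 than in MT2, at -1.67 ± 0.27, and Pgr did not differ past the threshold (1.26 ± 1.01, edgeR adjusted p = 0.275). Esr1, Prlr, Wnt4 and Prom1 remained higher in MT1 than in MT2.

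Marker lists of the cell classes were summed beside the members. The 10 hormone-sensing markers summed to 474 to 841 CPM in the non-stromal cells of the 4 gland libraries, to 51.2 to 68.3 CPM in the 5 MT1 libraries with 0 or 1 marker at 0, and to 8.46 to 9.77 CPM in the 3 MT2 libraries with 5 or 6 markers at 0. The 10 basal markers had the same order, with 766 to 876 CPM in the glands, 193 to 209.8 CPM in MT1 and 27.9 to 28.9 CPM in MT2. The secretory list overlapped between the glands and MT1: it summed to 5296 to 11988 CPM in the glands, 6443 to 10323 CPM in MT1 and 135 to 178 CPM in MT2. By the rule used to name clusters, the MT1 clusters 3, 4 and 5 raised 5, 3 and 0 of these 10 markers. The sums thus do not show that each secretory marker was kept. The epithelial list summed to 12549 to 15116 CPM in the glands, 8176 to 10435 CPM in MT1 and 734 to 970.0 CPM in MT2. The fibroblast list summed to 305 to 713 CPM in the glands, 336 to 459 CPM in MT1 and 3326 to 3765 CPM in MT2. The immune list summed to 5.67 to 32.6 CPM in the glands, 44.0 to 125 CPM in MT1 and 4.68 to 9.80 CPM in MT2. The endothelial list summed to 7.16 to 24.9, at most 5.02 and 3.21 to 3.97 CPM, and the pericyte list to 16.3 to 30.7, 1.82 to 9.49 and 27.9 to 37.9 CPM, in the same order of tissues. The glands and MT1 did not overlap in these 3 lists. Prom1 did not pass the test in MT1 against MG1, and Cited1, Ly6a and Tph1 did not pass the test between MT1 and MT2. The part of cell makeup in the members' changes was not tested.

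Within MT1, the tumor clusters differed in the members they held. Prlr was highest in cluster 3, an epithelial cluster led by Sfrp1 and Pla2g7, at 55.6 CPM and 4.25% (3.60 to 4.97%) of cells. Cluster 4, an epithelial cluster led by Ccl20 and Tnfrsf11b, had 33.6 CPM and 2.33% (1.78 to 2.997%), and cluster 5, led by Prl2c3 and Cav1, had 13.0 CPM and 0.815% (0.408 to 1.45%). Across the 5 MT1 libraries, the mean of cluster 3 was 53.8 ± 11.4 CPM (SD, n = 5), of cluster 4 31.6 ± 6.19 CPM and of cluster 5 13.0 ± 8.97 CPM. The libraries' ranges of clusters 3 and 4 overlapped and those of clusters 4 and 5 did not. Prom1 had the same 2 clusters at the top, with 27.6 and 24.6 CPM against 1.83 CPM in cluster 5. Wnt4 was at 5.92, 2.88 and 0.783 CPM. Esr1 did not follow them: cluster 3 had 6.91 CPM, cluster 4 2.56 CPM and cluster 5 6.78 CPM.

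In MT2 tumor clusters, Cited1 and Ly6a were the members with most UMIs, and Esr1 had 40, Tph1 28 and Prlr 27. Cluster 1, led by Grem1 and Ptgs2, had Cited1 at 7.77 CPM and cluster 2, led by cell cycle genes, at 4.28 CPM. The library ranges of the 2 clusters did not overlap, at 6.84 to 9.38 CPM and 2.41 to 5.39 CPM. All 254 Cited1 UMIs of these clusters came from 154 cells, with up to 9 in 1 cell. Ly6a was at 20.6 and 16.2 CPM, in 1.64% (1.33 to 2%) and 1.41% (1.07 to 1.82%) of cells. Pgr had 3 UMIs and Wnt4 2 in 9802 tumor-cluster cells of MT2.

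Tumor clusters were also set against single gland classes of the same mouse, in libraries with at least 10 cells of the class and with edgeR over 13037, 12778 and 13011 genes. Against hormone-sensing-like cells, 8 of 8 members were lower in MT1 (23.7% of all genes lower, 29.7% higher, 53.4% either way) and 8 of 8 in MT2 (31.5% lower, 32% higher, 63.5% either way). The smallest of these differences was that of Prom1 in mouse 1, at -1.16 ± 0.25 (edgeR adjusted p = 7.01e-04), and the largest among members with UMIs in the tumor was that of Prlr in mouse 2, at -11.88 ± 0.39, Prom1 having no UMI in MT2. The classes were drawn from the same cells, so these counts describe how far the tumor cells stood from that class.

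Against secretory-like cells, MT1 tumor clusters had 5 members lower (24.2% of all genes) and 1 higher (26.6%, and 50.9% either way). Prlr stayed lower, at -2.32 ± 0.22 (edgeR adjusted p = 3.78e-08), with 31.6, 45.9, 46.1, 35.2 and 34.9 CPM in the 5 libraries against 186 and 106 CPM. Prom1 was higher, at 1.63 ± 0.47 (edgeR adjusted p = 0.00743), with 25.5, 22.8, 19.8, 20.3 and 23.5 CPM against 6.90 and 0 CPM, which rest on 7 UMIs in MG1. Esr1 did not pass (-0.59 ± 0.54, edgeR adjusted p = 0.387), with 4.87, 3.995, 5.54, 6.46 and 5.23 CPM against 6.90 and 5.29 CPM, overlapping levels. Without MG1 replicate 1 or without MG1 replicate 2 the members lower were 3, with Wnt4 not passing in either case, Pgr not without replicate 1 and Cited1 not without replicate 2. Of all genes, 1387 of 14047 were lower without replicate 1 and 3006 of 13814 without replicate 2, beside 3098 of 12778 with both. In MT2, 8 of 8 members were lower than in secretory-like cells of MG2 (32% of all genes lower, 34.1% higher, 66.2% either way), from -1.15 ± 0.34 for Cited1 to -7.99 ± 0.29 for Prlr among the 7 with UMIs in MT2. Cited1 did not pass without MG2 replicate 2.

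Against basal-like cells, 4 members were lower in MT1 (13.6% of all genes, with 23.4% higher and 37% either way), Pgr, Tph1, Cited1 and Prlr, and 5 in MT2 (20.7%, with 27.7% higher and 48.4% either way), Esr1, Pgr, Prlr, Tph1 and Prom1. The call of Prom1 in MT2 rests on 1 UMI in MG2 basal-like cells against 0 in MT2, and nothing is read from it. Prlr was lower by a log2 fold change of -1.88 ± 0.33 in mouse 1 and -6.28 ± 0.55 in mouse 2 (edgeR adjusted p = 4.32e-05 and 6.34e-11). Few UMIs stand behind the basal-like side, 54 of Prlr in MG1 and 34 in MG2 and 12 or fewer of every other member. Without MG1 replicate 1, which leaves 13 basal-like cells, 2 members were lower in MT1 and Prlr did not pass, where 818 of 14412 genes were lower in place of 1768 of 13011. Without MG2 replicate 2, 2 were lower in MT2, where 1949 of 14268 genes were lower in place of 2688 of 13011. The calls over all genes thus fell as well.

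The receptors were then counted per cell. At 800 UMIs, 86.2% (81.5 to 90.1%) of hormone-sensing-like cells of MG1 and 89.2% (87.0 to 91.2%) of those of MG2 had a UMI of at least 1 of the 3 receptors. Over the 1178 gland cells of this class, 67.0% had 1 receptor, 20.4% had 2 and 1.19% had 3, and without thinning 43.4% had 2 and 12.6% had 3. Secretory-like cells had any receptor in 10.5% (7.15 to 14.7%) and 10.1% (8.21 to 12.2%) of cells, almost all of it Prlr. In basal-like cells the share was 15.7% (9.45 to 24.0%) in MG1 and 5.50% (2.88 to 9.42%) in MG2. The 63 hormone-sensing-like cells of MT1 had 76.2% (63.8 to 86.0%), with 0 cells with 3 receptors even without thinning. The share was 3.39% (2.99 to 3.83%) in MT1 tumor clusters and 0.122% (0.0633 to 0.214%) in MT2 tumor clusters, and without thinning 9.72% and 0.694%.

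**Figure D4:**
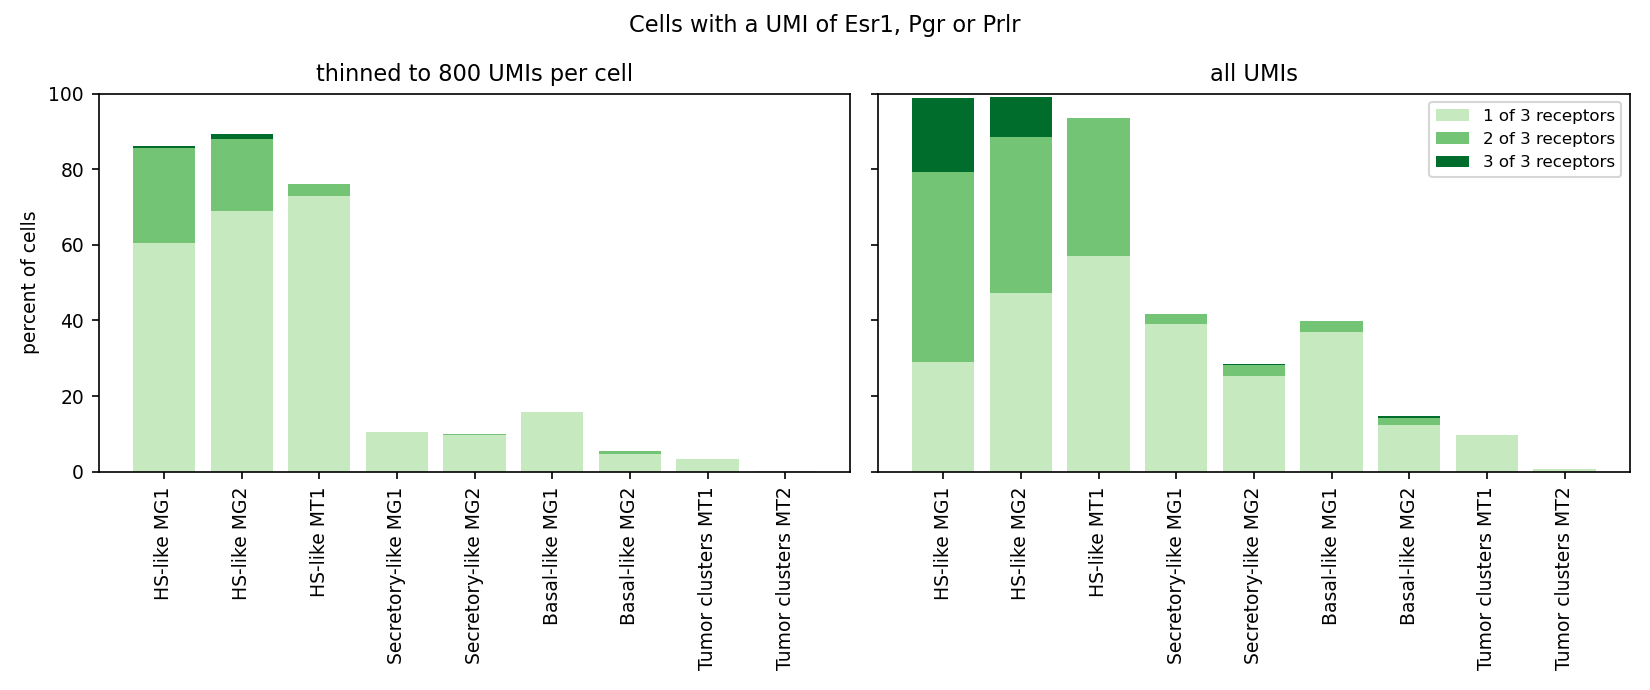
Percent of cells (vertical axis) with a UMI of 1, 2 or 3 of the receptors Esr1, Pgr and Prlr, by cell class and group, after thinning to 800 UMIs per cell (left) and with all UMIs (right). Hormone-sensing-like cells of both glands stand at 86.2% and 89.2% at 800 UMIs, and the tumor clusters of MT1 reach 3.39%.

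Within hormone-sensing-like gland cells, the number of cells with both members of a pair at 800 UMIs, over the number expected from their separate shares, ran from 0.416 to 1.32. Esr1 and Pgr were seen together in 14 cells against 15.5 expected at 800 UMIs, Esr1 and Prlr in 80 cells against 74.9 expected, and Pgr and Prlr in 188 cells against 181 expected. The 22 pairs examined were the 18 that hold a receptor and 4 others, Cited1 with Prom1, Ly6a with Cited1, Ly6a with Prom1 and Wnt4 with Tph1. Of the 22, 13 had more shared cells than expected, and with all UMIs all 22 did. In 9 pairs the direction thus turned with depth. Cells with a UMI of Esr1 had a median of 3864 UMIs and cells without 2617 when not thinned. The 95% intervals of the shares in cells with and without the first gene of the pair were apart in 1 pair at 800 UMIs, Prlr with Cited1.

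Cited1 was seen in 24.8% (22.1 to 27.5%) of Prlr-positive and 15.2% (10.1 to 21.7%) of Prlr-negative cells. The ratio of shared cells to those expected was 1.11, 0.9, 1.08 and 1.03 in the 4 gland libraries, so 1 of 4 was below 1. That library, MG1 replicate 2, had 27 hormone-sensing-like cells, too few to read a direction from. Cited1 was seen in 31.0% (21.5 to 41.9%) of Esr1-positive and 22.8% (20.4 to 25.4%) of Esr1-negative cells, with overlapping intervals. Ly6a was seen in 12.9% (8.65 to 18.2%) of Pgr-positive and 20.1% (17.7 to 22.8%) of Pgr-negative cells at 800 UMIs, and in 48.9% and 42.0% with all UMIs. The pooled shares mix glands and libraries that differ in both genes, and the ratio of shared cells to those expected was 0.835 and 0 in the 2 MG1 libraries and 0.613 and 0.807 in those of MG2. The 0 is that of MG1 replicate 2, whose 27 hormone-sensing-like cells are too few to read a lack of shared cells from. In MT1 tumor clusters, Prlr and Prom1 were seen together in 4 of 7365 cells against 4.14 expected. Cells of a library are not replicates, and no test was made on these counts.

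The partners of the receptors were followed in the same fit, in lists put together with earlier results known. In mouse 1, 32.2% of all genes tested were higher and 27.1% lower, and in mouse 2 32.7% and 34.3%, and the counts below are to be set beside these shares. Of 10 receptor partners and coregulators, 1 was higher and 7 lower in MT1 against MG1, and 0 higher and 9 lower in MT2 against MG2, with a median log2 fold change of -1.34 and -2.11 beside 0.11 and -0.05 over all genes. Foxa1, the pioneer factor of the estrogen receptor and also 1 of the hormone-sensing markers, was at 52.9 and 38.0 CPM in MG1, 4.70, 5.88, 2.81, 4.90 and 4.08 CPM in MT1, 35.7 and 32.2 CPM in MG2 and 0, 0 and 0 CPM in MT2, with a log2 fold change of -3.48 ± 0.25 in mouse 1 and no UMI in MT2. Xbp1, an unfolded protein response factor and estrogen target, rose by 1.31 ± 0.16 in MT1 and was at -1.77 ± 0.15 in MT2. Greb1, an estrogen-induced cofactor, was at -1.14 ± 0.62 in mouse 1, which did not pass the test, and fell to no UMI in MT2.

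Of 8 genes of prolactin signalling, 2 were higher and 3 lower in mouse 1 (all genes 32.2% and 27.1%), and 2 higher and 4 lower in mouse 2 (all genes 32.7% and 34.3%), with medians of -0.32 and -0.17. Elf5, a secretory lineage factor downstream of prolactin, which is also among the secretory markers used to name that class, was at 0.59 ± 0.19 in mouse 1 and -7.93 ± 0.27 in mouse 2, that is slightly higher in MT1 and far lower in MT2 (edgeR adjusted p = 0.0111 and 5.46e-14). The 3 genes that fell in mouse 1 were Stat5a, the transcription factor of the route, at -1.63 ± 0.19, the receptor's kinase Jak2 at -1.14 ± 0.17 and the feedback inhibitor Cish at -0.81 ± 0.22, which were named after their values were seen. In mouse 2 these were at -0.43 ± 0.17, 0.25 ± 0.16 and -0.83 ± 0.19, of which Jak2 did not pass. The feedback inhibitor Socs1 rose in both, by 1.87 ± 0.33 and 1.85 ± 0.26, and Socs2 passed the test in mouse 2 and not in mouse 1 (-0.28 ± 0.22 and -2.003 ± 0.23), while Socs3 rose in mouse 2 and did not pass in mouse 1 (0.25 ± 0.24 and 0.98 ± 0.24). Of 13 partners in paracrine signalling 11 were tested, of which 0 were higher and 5 lower in mouse 1, and 3 higher and 7 lower in mouse 2, beside the same shares of all genes.

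Tnfsf11 (RANKL), the progesterone-induced ligand, was at 1.25 and 5.18 CPM in MG1, 1.18, 1.96, 1.56, 0.980 and 2.04 CPM in MT1, 0.479 and 0.471 CPM in MG2 and 34.8, 37.6 and 36.8 CPM in MT2. The MT2 libraries lay above all others, with log2 fold changes of -0.44 ± 0.60 in mouse 1 and 6.20 ± 0.37 in mouse 2 (edgeR adjusted p = 0.607 and 5.63e-11). Calca, the calcitonin gene and also 1 of the hormone-sensing markers, was at -3.23 ± 0.65 in mouse 1 and had no UMI in MT2, where it was called lower. Rspo1, an enhancer of WNT signals, was at 0.18 ± 0.51 in mouse 1 and had no UMI in MT2, where it was called lower, and Axin2, a WNT target, at -1.28 ± 0.60 and 1.62 ± 0.50. Of 10 other nuclear and estrogen receptors 9 were tested, with 1 higher and 4 lower in mouse 1 (all genes 32.2% and 27.1%) and 2 higher and 5 lower in mouse 2 (all genes 32.7% and 34.3%). Nr3c1, the glucocorticoid receptor, was at 0.09 ± 0.16 and 0.73 ± 0.16, and Nr3c2, the mineralocorticoid receptor, at -3.53 ± 0.53 and -6.20 ± 0.57. Gper1, a membrane estrogen receptor, had no UMI in MG1 and was called higher in MT1, and was at 1.71 ± 0.60 in mouse 2, and Thrb, a thyroid hormone receptor, at -1.87 ± 0.42 and -6.16 ± 0.43.

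The genes most like the members in level were ranked by Pearson's r of log2(CPM + 10) over 39 sums of library and cell class with at least 20 cells, among 13356 genes. For Esr1 they were Pgr (r = 0.897), Gipc2 (r = 0.846), Stc2 (r = 0.843). For Pgr they were Gm16485 (r = 0.940), Fzd10 (r = 0.935), Upk3a (r = 0.935), for Prlr Tmem56 (r = 0.911), Stc2 (r = 0.906), Slc12a2 (r = 0.899), for Wnt4 Fer1l4 (r = 0.909), Tph1 (r = 0.906), Cited1 (r = 0.904) and for Cited1 Itih2 (r = 0.970), Fam25c (r = 0.952), Ttc6 (r = 0.942). Tph1 was nearest to Itih2 (r = 0.945), Cited1 (r = 0.935), Fam25c (r = 0.927), and Ly6a to Ly6c1 (r = 0.918), Fcgrt (r = 0.795), Cd34 (r = 0.794). Prom1 was nearest to Ifnlr1 (r = 0.867), Cfap126 (r = 0.858), Cysrt1 (r = 0.853). The sums share libraries and depth, so r is a description across them.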

How the data were processed

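Cells of 12 Drop-seq libraries were measured (2 MG1, 2 MG2, 5 MT1, 3 MT2). The deposited tables hold raw UMI counts per gene and cell, which the authors made with Drop-seq tools and STAR on GRCm38.p6. How reads shared by paralogs and strand were counted is not given in the sources used here. All columns of cells mapped to a library (0 did not). Members and lists were chosen with earlier results of these data known.

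Cells were clustered without the members (scanpy 1.11.5, leidenalg 0.10.2, 3000 variable genes, 30 principal components, 20 neighbours, resolution 0.6). Clusters with at least 90% tumor library cells and no gland or stromal name are the tumor clusters, and a name needed at least 3 markers at a log2 fold of 1 or more (pseudocount 10 CPM). A doublet caller marked 44 cells (0.208%) and was not relied on, and an alternative left out the 5% with the highest scores (1064 cells). Shares were computed after thinning to 800 UMIs, with 500 and all UMIs as alternatives.

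UMI counts were summed per library over non-stromal cells or a class with at least 10 cells, and edgeR 4.0.16 was run on the sums (R 4.3.3, TMM, filterByExpr, quasi-likelihood test, Benjamini-Hochberg over all genes, threshold 0.05). The SE is the absolute log2 fold change over the root of F. DESeq2 1.42.0, other size factors, filters, cells and left-out libraries were alternatives. Scripts were tested on simulated data. Libraries of 1 group differed by more than sampling noise in every pair. No 2 libraries shared more than 7 cell barcodes. Named genes were the members and, from the pathway lists, those with the largest changes in either direction, up to 4 a list, to which Stat5a, Jak2 and Cish were added after their values were seen.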

Additional observations from a re-analysis of the deposited data

Results flagged for a closer look

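The change from gland to tumor differed between the 2 mice for 7 genes by the test of the difference itself (edgeR, mouse 1 minus mouse 2, log2 scale). The fall was deeper in mouse 2 for Prom1 (9.97), Prlr (5.84), Wnt4 (5.24), Pgr (3.29), Esr1 (2.30) and Ly6a (0.98), and deeper in mouse 1 for Cited1 (-0.87). The value of Prom1 depends on the prior count, since MT2 had no UMI of it. Pgr and Ly6a did not pass without the gland-like cells of the tumor libraries, where Pgr rested on 4 UMIs in MT1 and 3 in MT2. With 1 mouse on either side, mouse, tumor and preparation cannot be told apart. No library stood apart from its group in the 9 groups of MT1 values tested, where chance alone marks about 1 group in 20.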

How the results depend on the processing

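The number of members past the threshold kept within 1.5 times its value in 182 alternatives (size factors, DESeq2, filters, clustering resolution, doublet scores, cells included, libraries left out). It moved to 2 for MT1 tumor clusters against MG1 basal-like cells without MG1 replicate 1 (2499 of 14412 genes called, 4813 of 13011 with it), and to 2 for MT2 against MG2 basal-like cells without MG2 replicate 2 (4759 of 14268 genes called, 6296 of 13011 with it). Leaving out libraries gave 7 to 7 members in MT1 against MG1, 8 to 8 in MT2 against MG2, 6 to 7 in the difference between the mice, 5 to 6 in MT1 against MT2, 8 to 8 against hormone-sensing-like cells in both mice, 4 to 7 and 7 to 8 against secretory-like cells, and 2 to 5 and 2 to 6 against basal-like cells. Of single genes, 1408 values kept direction and side of the threshold, 22 were weaker, 16 stronger and 22 reversed. Without the gland-like cells of the tumor libraries (chosen after seeing the data), MT1 against MT2 turned to -1.67 for Cited1, -0.21 for Ly6a and -1.11 for Tph1, and the difference between the mice to -1.55 for Tph1. Ly6a in MT1 against MT2 was -0.0167 without MT1 replicate 2. Ly6a of MT1 against basal-like cells turned to 0.0354, 0.12, 0.80, 0.0535, 0.0525, 0.15, 0.0223, 0.0719 and 0.00782, and of MT2 to -0.41 without MG2 replicate 1. Cited1 of MT2 against basal-like cells turned to -0.69 at resolution 1.0 and -0.00223 without MG2 replicate 1, and Wnt4 to 1.67 there. Without MG1 replicate 1, Esr1 of MT1 turned to 7.88 against basal-like and 0.34 against secretory-like cells, and Pgr to 3.40 against secretory-like cells. Pgr of MT2 turned to 2.09 against basal-like cells without MG2 replicate 2. Over all libraries left out 1 at a time, these ran from -0.0167 to 0.39 for Ly6a in MT1 against MT2. Against basal-like cells they ran from -0.30 to 0.80 for Ly6a and -1.04 to 7.88 for Esr1 of MT1, and from -0.41 to 1.80 for Ly6a, -0.00223 to 1.203 for Cited1, -5.85 to 1.67 for Wnt4 and -7.83 to 2.09 for Pgr of MT2. Against secretory-like cells they ran from -0.71 to 0.34 for Esr1 and -5.56 to 3.40 for Pgr of MT1. The cause of the reversals was not tested. Ly6a in the difference between the mice was past the threshold in some settings only (adjusted p of 0.0384 in edgeR and up to 0.233). Resolution 0.3 merged secretory-like and basal-like cells and gave no value for them, and Prom1 of MT2 against basal-like cells had none without MG2 replicate 2.

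The replicate block was the mouse: with it 0 members were called and 2219 genes had an unadjusted p under 0.05, and with no replicate block 0 members and 3083 genes. Replicate numbers within groups do not pair libraries, as they follow accession order. Thinning to 500 UMIs, all UMIs, another clustering resolution and leaving out the highest doublet scores moved 67 shares by more than the counting interval or the spread between libraries. Depth limits the shares, and most hormone-sensing-like gland cells gave no UMI of Esr1, Wnt4 or Prom1.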
